A study of Mus musculus with 10 samples.

Results

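The genes described here are 33 listed members of the integrated stress response and of tRNA charging: ATF4 and the genes it is known to activate, and cytosolic aminoacyl-tRNA synthetases. A member was measured where a probe set of the array carried its symbol alone in the platform annotation, and where several did, the one with the highest average signal was used. By that rule 30 of the 33 were measured, out of 19938 gene symbols in all. Gdf15 and Mars had no such probe set, and Aars was named only on a probe set shared with Exosc6, so none of these 3 has a value here. All 30 also passed the filter on dim probe sets that left 14953 genes for testing.

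RNA came from B220+ cells (B220 is a surface protein of B lineage cells) sorted from pre-B colonies, which are clones of B cell precursors grown from bone marrow in M3630 methylcellulose, on day 7. The groups were 5 Hspa9+/- mice, with 1 allele of Hspa9 lost, and 5 Hspa9+/+ littermates, the wild type, and marrow of each mouse was cultured independently. Each sample was hybridised to its own Mouse Gene 1.0 ST array after cDNA amplification. The strain, the age of the mice and the way the allele was disrupted are not given in the sources used here. Each value is an RMA estimate of the expression of 1 gene in log2 units, in which a shift of most genes one way would be largely removed, and the number of arrays limits the precision.

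Hspa9 encodes mortalin, the HSP70 chaperone of mitochondria, which helps to import and fold their proteins. In mammalian cells, uncharged tRNA, unfolded protein in the endoplasmic reticulum, heme shortage or mitochondrial stress activates kinases that phosphorylate the translation factor eIF2alpha. Translation of most mRNAs then falls while that of Atf4 mRNA increases, so ATF4 protein can change with no change in its mRNA. ATF4 pairs with C/EBP proteins on C/EBP-ATF response elements and is known to raise transcription of genes for amino acid synthesis, amino acid uptake and tRNA charging.

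Hspa9 itself measured 9.52, 8.92, 9.30, 9.21 and 8.97 in Hspa9+/- arrays 1 to 5, against 9.49, 9.57, 10.36, 10.17 and 9.99 in wild-type arrays 1 to 5. The difference (Hspa9+/- minus wild type, as for every difference here) was -0.73 (SE 0.185), which is 60.3% of the wild-type level. The two-sided exact permutation p over all splits of the 10 arrays was 0.0159, where the smallest possible is 0.0079, and limma's Benjamini-Hochberg adjusted p was 0.345. Hspa9+/- 2 and wild type 1 lay at one end of the first principal component, which held 52.8% of the variance, at 50.3 and 44.4. Wild types 3, 4 and 5 lay at the other end, at -40.1, -43.5 and -26.6, and the remaining arrays between -10.9 and 16.4. Hspa9+/- 2 and wild type 1 also had the highest means of 17 monocyte and macrophage markers, at 9.51 and 8.93. Wild types 3, 4 and 5 had the lowest, at 5.83, 5.63 and 5.73. The mean of these markers was 6.95 to 7.26 in the other Hspa9+/- arrays and 5.63 to 7.54 in the other wild-type arrays. The means of 10 B lineage markers were 10.64 to 10.96 in Hspa9+/- arrays and 10.84 to 11.06 in wild-type arrays. Because each array measured a bulk population, fewer cells of a type and less RNA per cell cannot be told apart.

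Promoter sequences of the members were searched for the element to which ATF4 is known to bind. The rule that chose the members did not read sequence. It did list genes that ATF4 is known to activate, so the share with a match is not independent of that choice. RefSeq windows of assembly GRCm38.p6, running from 250 bases before to 50 bases after the annotated start of a gene, were found for 28 of the 33 listed members. They were searched on both strands for TGATGNAA, the core of the C/EBP-ATF response element. A match was present in 11 of the 28 (39.3%), against 1219 of 27025 genes with a window (4.51%) and 332 of 11781 tested genes with a window (2.82%). A shorter form, TGATGCA, which overlaps the first motif wherever N is C followed by A, was found in 8 of the 28 (28.6%) and in 3.63% of all genes. By role, a TGATGNAA match lay in 5 of 8 synthetases, 3 of 10 regulators, 2 of 8 synthesis genes and 1 of 2 transporters. A match describes the letters in the window and is not a measured binding site.

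The sequences below are stretches of 58 bases around the match, cut from the windows of 7 measured members with an upstream match, each written 5′ to 3′ on the strand of the gene, with the match in capitals. They are shown so that the shared core and its orientation can be compared with the expression values that follow. The matched letters read TGATGNAA where the core lies on the strand of the gene, and its reverse complement where it lies on the opposite strand.
Asns, chr6:7693200-7693257, minus strand: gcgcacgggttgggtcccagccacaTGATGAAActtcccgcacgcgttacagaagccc
Pck2, chr14:55540138-55540195, plus strand: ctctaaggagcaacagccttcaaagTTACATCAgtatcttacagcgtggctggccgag
Chac1, chr2:119351024-119351081, plus strand: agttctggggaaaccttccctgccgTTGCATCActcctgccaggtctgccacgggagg
Nupr1, chr7:126625548-126625605, minus strand: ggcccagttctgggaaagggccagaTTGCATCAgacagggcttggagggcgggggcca
Slc7a11, chr3:50443647-50443704, minus strand: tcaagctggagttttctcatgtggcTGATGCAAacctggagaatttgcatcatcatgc
Gars, chr6:55037946-55038003, plus strand: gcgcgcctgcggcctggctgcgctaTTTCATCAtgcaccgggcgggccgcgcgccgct
Tars, chr15:11399641-11399698, minus strand: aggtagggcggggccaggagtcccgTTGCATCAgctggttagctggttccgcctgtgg

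The first base of the match lay at -23 from the annotated start in Asns, at -103 in Pck2, at -193 in Chac1 and at -110 in Nupr1, where negative numbers are upstream. In Slc7a11 matches lay at -66 on the strand of the gene and at -47 on the opposite strand (TTGCATCA, in lower case in the sequence above), and in Gars and Tars at -30 and -15. In the other measured members with a match it lay downstream of the start, as TTACATCA at 15 in Trib3, TTGCATCA at 8 in Iars and TGATGCAA at 4 in Yars. Aars, without a value on these arrays, held 2 matches, at -112 and at 10. Atf4, Ddit3, Atf5, Cebpb, Phgdh, Psat1 and Slc3a2 were among the members whose window held no match.

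**Figure D1:**
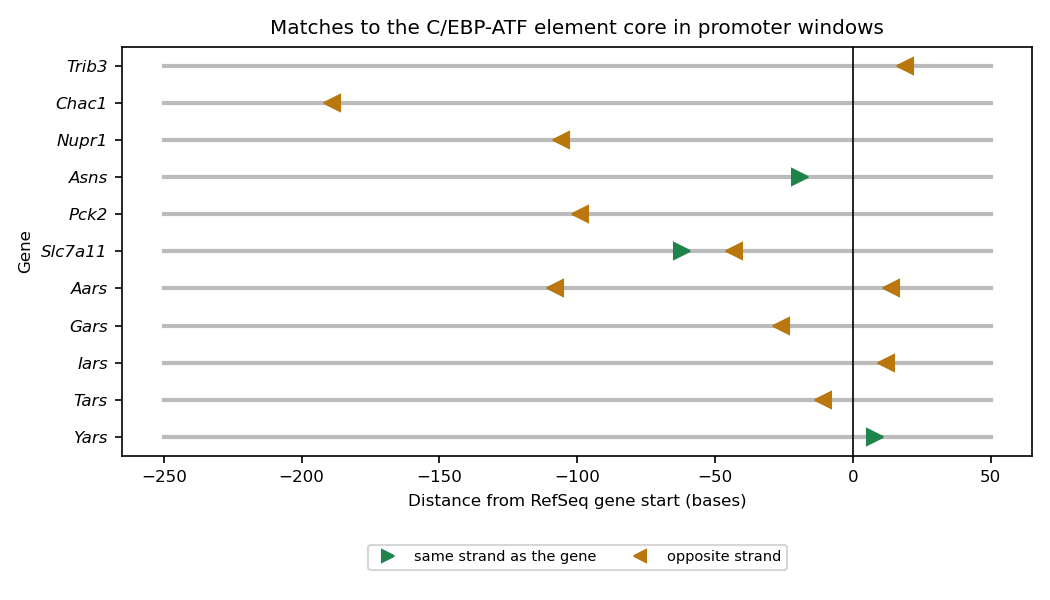
Position of each match to the C/EBP-ATF element core in the promoter windows of the 11 members that have one. The x axis is the distance in bases from the RefSeq gene start, grey lines are the windows searched, and arrowheads give the strand; Slc7a11 and Aars hold 2 matches each, and Chac1 holds the one farthest upstream.

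In Hspa9+/- cells 22 of the 30 measured members had a higher mean than in wild-type cells, led by Asns (difference 0.69), and 8 had a lower one, led by Ddit3 (difference -0.34). None of these differences passed the adjusted test with all arrays. With limma and Benjamini-Hochberg adjustment over all 14953 genes, 0 members and 0 genes overall (0.0%) had an adjusted p under 0.05. At an unadjusted p under 0.05, 1 member was higher in Hspa9+/- cells (Asns), where 6.79% of all genes were, and 1 was lower (Ddit3), where 4.25% of all genes were. The 22 members above 0 are 73.3% of the 30, where 61.3% of all genes lay above 0, and the median difference was 0.21 over the members and 0.058 over all genes. No member had all Hspa9+/- arrays above or all below the wild-type arrays. Among all genes, such groups without overlap were seen with Hspa9+/- higher in 1.47% and with Hspa9+/- lower in 0.809%.

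The member values of wild type 1 differed from those of the other wild-type arrays. It was the highest of all 10 arrays in 10 of the 30 members and the highest wild-type array in 20 of 30. The mean over the 30 members was 8.38, 8.36, 8.34, 8.57 and 8.44 in Hspa9+/- arrays 1 to 5, against 8.64, 8.18, 8.20, 8.15 and 8.13 in wild-type arrays 1 to 5. All 5 Hspa9+/- means therefore lay above those of wild types 2 to 5 and all lay at or below 8.57, under that of wild type 1. Without wild type 1, 1 member (Asns) and 22 genes overall (0.147%) passed the adjusted test, and 13 of 30 members were higher at an unadjusted p under 0.05, where 9.01% of all genes were, and 1 was lower (Ddit3), where 6.01% were. In 3 (Asns, Pck2 and Slc3a2) every Hspa9+/- array then lay above every wild-type array, as in 3.38% of all genes. In the same setting the macrophage markers differed more between the genotypes: 9 of 17 were higher at an unadjusted p under 0.05, against 0 with all arrays, and their median difference was 1.52, against 0.93. Without both wild type 1 and Hspa9+/- 2, Asns and 26 genes overall (0.174%) passed, 16 of 30 members were higher where 10% of all genes were, and Ddit3 was the 1 member lower, where 6.09% were. In that setting 7 members (Asns, Aldh18a1, Pck2, Slc3a2, Slc7a5, Gars and Yars) had every Hspa9+/- array above every wild-type array, as had 5.68% of all genes, and 9 of the 17 macrophage markers were again higher, with a median difference of 0.88. Slc7a11, which counts among the 16, lay near or below the filter level in every array kept and passed the filter through the 2 arrays left out. These settings were chosen with earlier results of these arrays known, and the part of each array in the result beyond these values was not tested.

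**Figure D2:**
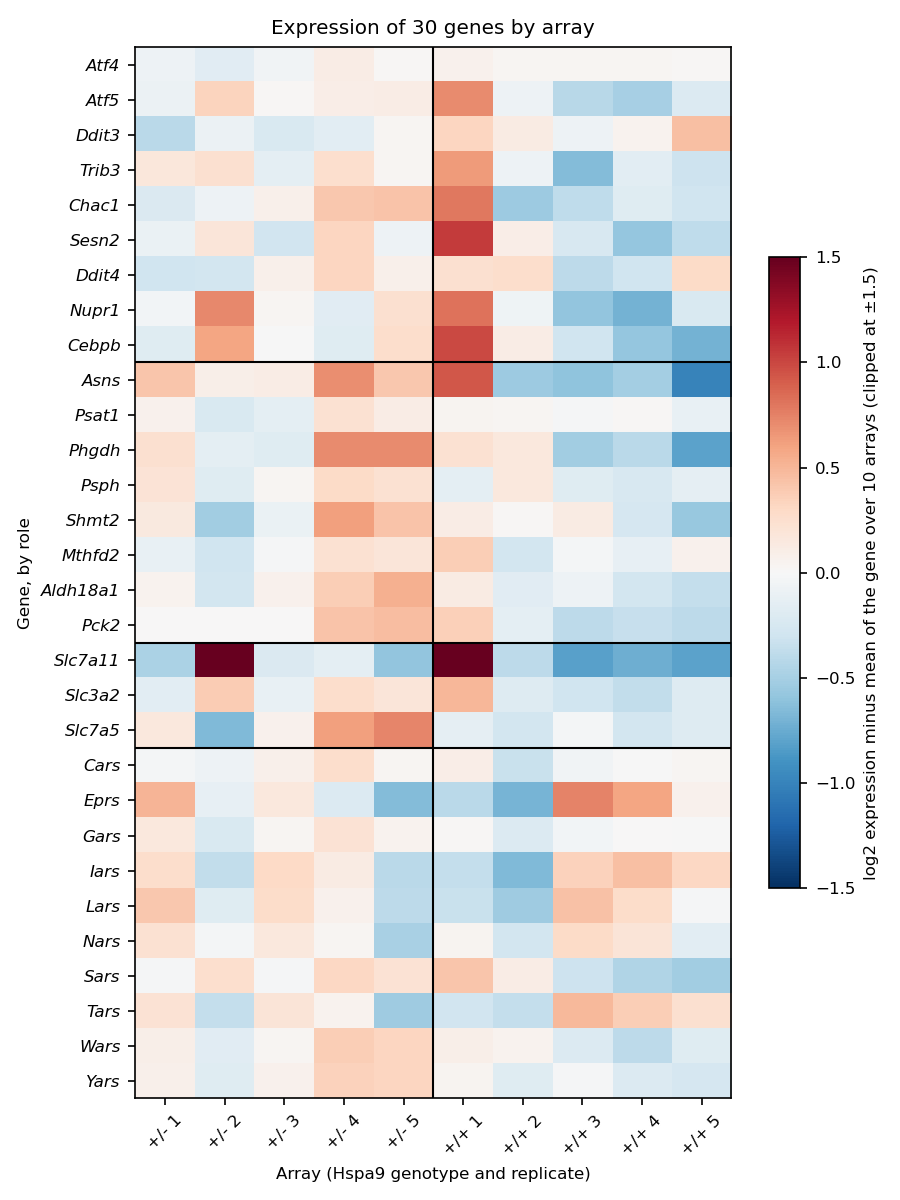
Expression of the 30 measured members by array, as log2 expression minus the mean of the gene over 10 arrays, with Hspa9+/- arrays 1 to 5 left of wild-type arrays 1 to 5 and the genes grouped by role. Wild type 1 is dark red in most regulators and in Asns, Hspa9+/- 4 and 5 are red in most synthesis genes, and Eprs, Iars, Lars, Nars and Tars run against Wars and Yars in several arrays.

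Among the regulators of the response, Ddit3 was lower in Hspa9+/- cells at an unadjusted p under 0.05 and no other measured member of this group passed even that level. Ddit3 (probe set 10366881, chromosome 10) encodes CHOP, a transcription factor that is induced by ATF4 and promotes cell death under lasting stress. It measured 7.46, 7.77, 7.63, 7.70 and 7.89 in Hspa9+/- arrays 1 to 5, against 8.19, 7.98, 7.78, 7.91 and 8.31 in wild-type arrays 1 to 5. Hspa9+/- arrays 1 to 4 lay below the lowest wild-type array, and array 5 lay within the wild-type range. The mean was 7.69 ± 0.160 in Hspa9+/- arrays and 8.03 ± 0.217 in wild-type arrays (SD, n = 5 each). The difference was -0.34 (SE 0.125), or 0.788 of the wild-type level, with an unadjusted p of 0.0188 and an adjusted p of 0.384 by limma. Its sign was the same in the fits that left out 1 array, where it ran from -0.41 to -0.27.

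Atf4 (probe set 10425364, chromosome 15), the transcription factor at the head of the response, had the smallest standard error of difference of the 30 members (0.081). It measured 10.11, 10.01, 10.13, 10.29 and 10.20 in Hspa9+/- arrays 1 to 5, against 10.24, 10.21, 10.21, 10.21 and 10.20 in wild-type arrays 1 to 5. The wild-type arrays lay within a narrow range. Hspa9+/- 4 lay above every wild-type array and the other 4 lay below every one, array 5 by less than the rounding shows. The difference was -0.07 (95% interval -0.24 to 0.11, adjusted p = 0.727 by limma), and these arrays do not measure ATF4 protein.

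The other 7 measured regulators had differences between -0.04 and 0.31, with unadjusted limma p-values of 0.287 or more. Nupr1, a small chromatin-associated stress protein, differed by 0.31 (SE 0.276), and Chac1, which degrades glutathione, by 0.25 (SE 0.241). Trib3, a pseudokinase that dampens ATF4 activity, differed by 0.22 (SE 0.204), Cebpb, a partner of ATF4 on its elements, by 0.20 (SE 0.299), and Atf5, a relative of ATF4 linked to mitochondrial stress in mammals, by 0.19 (SE 0.205). Sesn2 and Ddit4, which restrain mTORC1 signalling, differed by 0.02 (SE 0.269) and -0.04 (SE 0.178). The groups overlapped in each of these genes. Nupr1 ran from 6.20 to 7.10 in Hspa9+/- arrays and from 5.67 to 7.19 in wild-type arrays, and Cebpb from 5.97 to 6.75 in Hspa9+/- arrays and from 5.44 to 7.14 in wild-type arrays. Trib3 ran from 6.03 to 6.43 in Hspa9+/- arrays and from 5.52 to 6.81 in wild-type arrays, and Atf5 from 7.22 to 7.65 in Hspa9+/- arrays and from 6.82 to 8.02 in wild-type arrays. Sesn2 ran from 6.32 to 6.93 in Hspa9+/- arrays and from 6.03 to 7.65 in wild-type arrays, and Ddit4 from 7.15 to 7.77 in Hspa9+/- arrays and from 7.06 to 7.74 in wild-type arrays. Except in Ddit4, the wild-type range reached both below and above that of the Hspa9+/- arrays. Wild type 1 was the highest of all 10 arrays in 6 of the 9 measured regulators (Atf5, Trib3, Chac1, Sesn2, Nupr1 and Cebpb). Chac1 for example was 6.83, 6.97, 7.12, 7.45 and 7.47 in Hspa9+/- arrays 1 to 5, and 7.84 in wild type 1, against 6.50 to 6.87 in the other wild-type arrays. Without wild type 1 the Chac1 difference was 0.48 (unadjusted p = 0.0111, adjusted p = 0.255 by limma), and 5 of the 9 regulators were higher at an unadjusted p under 0.05 (Atf5, Trib3, Chac1, Nupr1 and Cebpb) while Ddit3 was lower, where 9.01% of all genes were higher and 6.01% lower. The macrophage markers moved in the same setting, as given above, and 4 of these 5 regulators (all but Chac1) also had a slope on the macrophage mean that passed the adjusted test, described below; the part of those cells in this count was not tested.

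Of the genes for amino acid and one-carbon synthesis, 7 of 8 had a difference above 0, with a median of 0.27. Asns (probe set 10543067, chromosome 6) encodes asparagine synthetase, which makes asparagine from aspartate and glutamine, and had the largest difference of the 30 members. It measured 9.36, 9.04, 9.06, 9.65 and 9.35 in Hspa9+/- arrays 1 to 5, against 9.88, 8.40, 8.34, 8.44 and 7.95 in wild-type arrays 1 to 5. All 5 Hspa9+/- arrays lay above wild types 2 to 5, and wild type 1 lay above all of them. The mean was 9.29 ± 0.251 in Hspa9+/- arrays and 8.60 ± 0.742 in wild-type arrays (SD, n = 5 each). The difference was 0.69 (SE 0.307), or 1.62-fold, with an unadjusted p of 0.0454 and an adjusted p of 0.448 by limma. Without wild type 1 it was 1.01 (SE 0.154, adjusted p = 0.0417), and without both wild type 1 and Hspa9+/- 2 it was 1.08 (adjusted p = 0.0400). Asns passed the adjusted test in these 2 settings and in no other of those run.

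The serine pathway, which feeds one-carbon units into nucleotide synthesis, gave differences that were unequal between its enzymes. Phgdh, its first enzyme, measured 8.90, 8.51, 8.48, 9.37 and 9.37 in Hspa9+/- arrays 1 to 5, against 8.88, 8.82, 8.13, 8.25 and 7.86 in wild-type arrays 1 to 5. Hspa9+/- arrays 4 and 5 were the highest, arrays 2 and 3 lay within the wild-type range, and the difference was 0.54 (SE 0.249, unadjusted p = 0.0533, adjusted p = 0.459 by limma). Psat1, the aminotransferase of the second step, differed by 0.01 (SE 0.104), while Psph, the phosphatase of the last step, differed by 0.23 (SE 0.117). Shmt2, which makes glycine and a one-carbon unit from serine in mitochondria, differed by 0.23 (SE 0.217), and Mthfd2, the next mitochondrial enzyme of the folate pathway, by -0.01 (SE 0.141). Shmt2 was bright and varied widely, from 9.77 to 10.91 in Hspa9+/- arrays and from 9.72 to 10.41 in wild-type arrays. Psph ran from 8.17 to 8.63 in Hspa9+/- arrays and from 8.10 to 8.50 in wild-type arrays. Psat1 ran from 9.47 to 9.92 in Hspa9+/- arrays and from 9.58 to 9.74 in wild-type arrays, so its Hspa9+/- values lay on both sides of the wild-type ones. In Psat1, Psph, Shmt2 and Mthfd2 the lowest Hspa9+/- array was number 2 and the highest was number 4.

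Pck2, the mitochondrial enzyme that makes phosphoenolpyruvate from oxaloacetate, measured 7.36, 7.36, 7.35, 7.78 and 7.81 in Hspa9+/- arrays 1 to 5, against 7.71, 7.20, 6.96, 7.00 and 6.96 in wild-type arrays 1 to 5. As with Asns, every Hspa9+/- array lay above wild types 2 to 5, but here wild type 1 lay below Hspa9+/- arrays 4 and 5. The difference was 0.37 (SE 0.169, unadjusted p = 0.0501, adjusted p = 0.453 by limma), and 0.51 (adjusted p = 0.195) without wild type 1. Aldh18a1, which starts proline synthesis from glutamate, differed by 0.30 (SE 0.154, unadjusted p = 0.0754, adjusted p = 0.491 by limma), with values of 8.48 to 9.28 in Hspa9+/- arrays and 8.40 to 8.87 in wild-type arrays. With quantile normalization 3 of the 8 synthesis genes were higher at an unadjusted p under 0.05, against 1 in the values as deposited, and 4.27% of all genes were. With array weights 10 of the 30 members were higher at that level, 5 of them synthesis genes, and 13.1% of all genes were, while 0 members and 137 genes overall (0.916%) passed the adjusted test. The weights were lowest for wild type 1 (0.364) and Hspa9+/- 2 (0.477) and highest for Hspa9+/- 3 (2.62). The weighted fit is therefore not independent of the settings that leave out wild type 1 or Hspa9+/- 2.

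**Figure D3:**
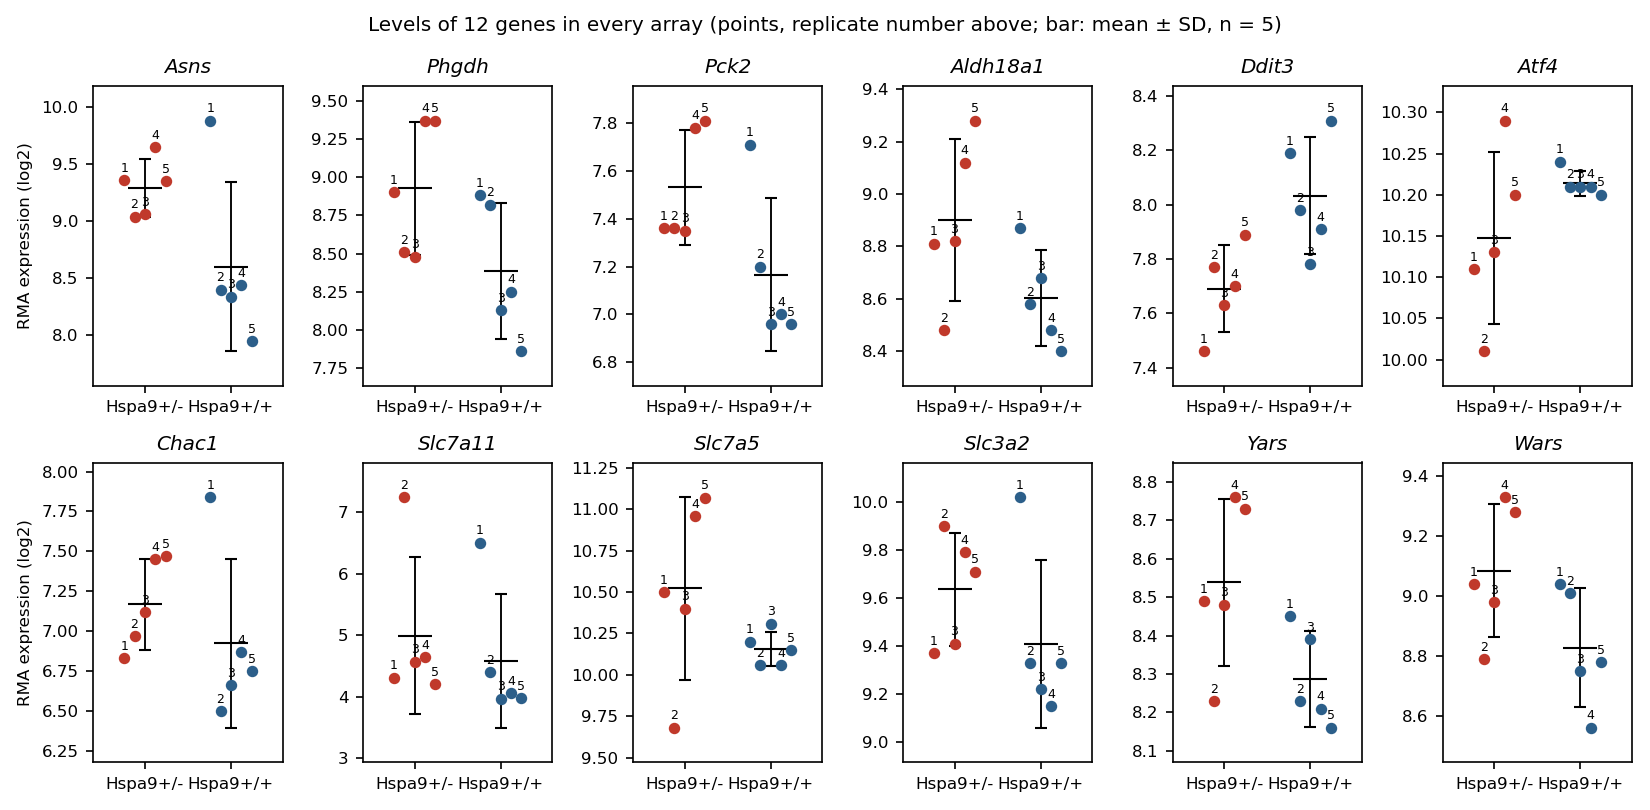
RMA expression (log2, y axis) of 12 members in every array, with Hspa9+/- (red) left of wild type (blue), the replicate number above each point, and bars for mean ± SD (n = 5). Wild type 1 is the highest point of its group in every gene shown except Ddit3 and Slc7a5. Hspa9+/- 2 is the highest point in Slc7a11 and the lowest in Slc7a5 and Atf4, and no gene has groups without overlap.

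All 3 amino acid transporters had differences above 0, with a median of 0.37, and 0 passed at an unadjusted p under 0.05. Slc7a5, the LAT1 transporter of large neutral amino acids such as leucine, measured 10.50, 9.68, 10.40, 10.96 and 11.07 in Hspa9+/- arrays 1 to 5, against 10.20, 10.06, 10.31, 10.06 and 10.15 in wild-type arrays 1 to 5. Hspa9+/- arrays 1, 3, 4 and 5 lay above every wild-type array, and Hspa9+/- 2 lay below every one. The difference was 0.37 (SE 0.226, unadjusted p = 0.132, adjusted p = 0.537 by limma), and 0.58 (unadjusted p = 0.00318) without Hspa9+/- 2.

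Slc3a2, the heavy chain (CD98) that LAT1 needs at the cell surface, measured 9.37, 9.90, 9.41, 9.79 and 9.71 in Hspa9+/- arrays 1 to 5, against 10.02, 9.33, 9.22, 9.15 and 9.33 in wild-type arrays 1 to 5. All Hspa9+/- arrays lay above wild types 2 to 5 and below wild type 1, and the difference was 0.22 (SE 0.176, unadjusted p = 0.228, adjusted p = 0.596 by limma). Without wild type 1 it was 0.38 (unadjusted p = 0.0151, adjusted p = 0.268 by limma). Slc7a11, the cystine importer xCT, which also pairs with the CD98 heavy chain, measured 4.31, 7.24, 4.57, 4.64 and 4.20 in Hspa9+/- arrays 1 to 5, against 6.50, 4.40, 3.97, 4.06 and 3.98 in wild-type arrays 1 to 5. Apart from Hspa9+/- 2 and wild type 1, every array was near or below the filter level of 4.52, and the difference of 0.41 had an SE of 0.641. Its sign turned to -0.15 without Hspa9+/- 2.

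The 10 measured synthetases, each of which attaches 1 amino acid (in Eprs, glutamate and proline) to its tRNA, were 6 above and 4 below 0, with a median of 0.08. None passed at an unadjusted p under 0.05. Yars (tyrosine) measured 8.49, 8.23, 8.48, 8.76 and 8.73 in Hspa9+/- arrays 1 to 5, against 8.45, 8.23, 8.39, 8.21 and 8.16 in wild-type arrays 1 to 5. Hspa9+/- arrays 1, 3, 4 and 5 lay above every wild-type array and Hspa9+/- 2 lay among them, and the difference was 0.25 (SE 0.118, unadjusted p = 0.0584, adjusted p = 0.465 by limma). Wars (tryptophan) measured 9.04, 8.79, 8.98, 9.33 and 9.28 in Hspa9+/- arrays 1 to 5, against 9.04, 9.01, 8.75, 8.56 and 8.78 in wild-type arrays 1 to 5. Hspa9+/- arrays 4 and 5 lay above every wild-type array, the other 3 overlapped them, and the difference was 0.26 (SE 0.134, unadjusted p = 0.0832, adjusted p = 0.494 by limma).

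Sars (serine) differed by 0.30 (SE 0.178), Cars (cysteine) by 0.10 (SE 0.107), Gars (glycine) by 0.09 (SE 0.102) and Lars (leucine) by 0.07 (SE 0.210). Iars (isoleucine) differed by -0.04 (SE 0.241), Nars (asparagine) by -0.04 (SE 0.156), Eprs by -0.12 (SE 0.296) and Tars (threonine) by -0.18 (SE 0.209). A second probe set of Iars differed by 0.19 (SE 0.225), so the 2 probe sets of this gene disagreed in sign. Both were read on the same arrays, so these errors do not measure the gap between them, which was not tested. Eprs had the widest range of the synthetases, 8.44 to 9.60 in Hspa9+/- arrays and 8.39 to 9.83 in wild-type arrays. Gars and Cars were among the narrowest, Gars at 9.58 to 10.02 in Hspa9+/- arrays and 9.60 to 9.82 in wild-type arrays, and Cars at 7.93 to 8.26 in Hspa9+/- arrays and 7.67 to 8.10 in wild-type arrays. Sars ran from 9.54 to 9.87 in Hspa9+/- arrays and from 9.04 to 9.97 in wild-type arrays, so the wild-type arrays enclosed the Hspa9+/- ones. The arrays that were high also differed within the family, a grouping made after the values were seen. In Eprs, Iars, Lars, Nars and Tars the highest of the 10 arrays was wild type 3 or wild type 4, and the lowest was wild type 2 or Hspa9+/- 5. In Cars, Gars, Wars and Yars the highest array was Hspa9+/- 4, and in Sars it was wild type 1. Iars for example was 10.06, 9.42, 10.09, 9.92 and 9.39 in Hspa9+/- arrays 1 to 5, against 9.43, 9.13, 10.14, 10.25 and 10.10 in wild-type arrays 1 to 5.

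**Figure D4:**
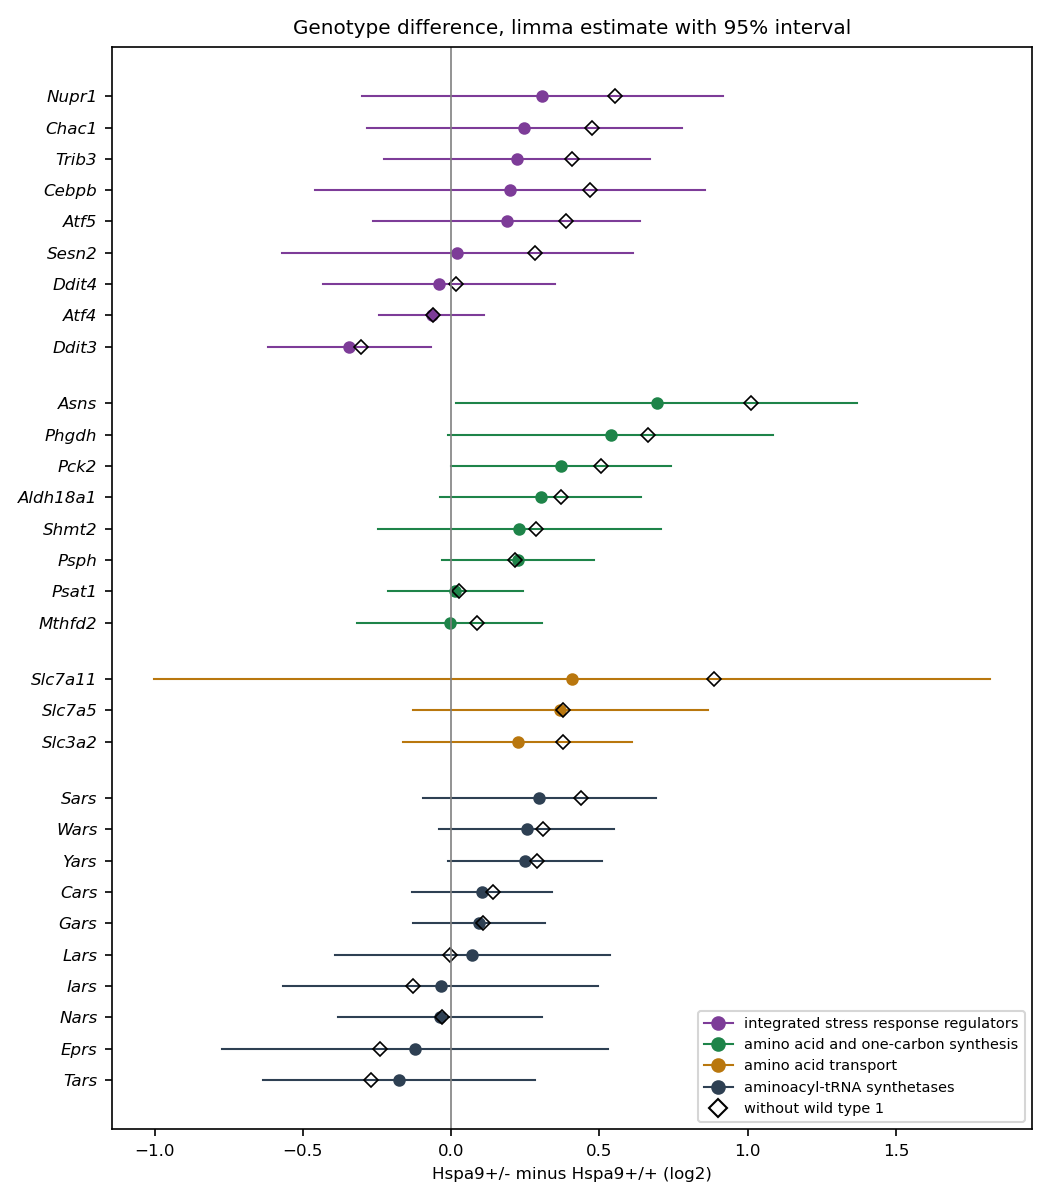
Genotype difference of the 30 members (Hspa9+/- minus wild type, log2, x axis), as limma's estimate (points) with its 95% interval (lines), coloured by role and ordered by size within each role. Open diamonds give the estimate without wild type 1; the intervals of Asns (0.02 to 1.37) and Ddit3 (-0.62 to -0.07) are the ones that leave out 0, and the diamonds of most regulators lie to the right of their points.

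Differences are given by promoter match as a description, without a test. The 10 measured members with a TGATGNAA match had a median difference of 0.25 (range -0.18 to 0.69, 8 of 10 above 0). The 15 members with a window and no match had a median of 0.19 (range -0.34 to 0.54, 10 of 15 above 0). The 5 members without a window in the tables used here had a median of 0.10. Asns, with the largest difference, and Tars, with the lowest among the synthetases, both held a match.

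Because macrophage markers varied between arrays of the same genotype, each member was also fitted with the mean of those markers beside genotype. The list held 18 symbols, of which Emr1 had no probe set of its own, and 17 markers were measured. All 17 had a difference above 0, from 0.10 to 1.59. At an unadjusted p under 0.05, 0 of 17 passed with all arrays, whereas 9 of 17 did without wild type 1. Csf1r, the receptor that macrophages depend on, measured 7.12, 9.47, 7.24, 7.20 and 7.59 in Hspa9+/- arrays 1 to 5, against 9.06, 7.78, 5.10, 5.11 and 5.30 in wild-type arrays 1 to 5. Lyz2, macrophage and neutrophil lysozyme, differed by 1.45 (SE 0.741). Of the 10 B lineage markers 4 lay above and 6 below 0, and at an unadjusted p under 0.05, 2 were higher (Vpreb2 by 0.51 and Igll1 by 0.29, both of the surrogate light chain) and 1 was lower (Cd22, by -0.98), named after their values were seen. Ptprc, which encodes the protein that carries the B220 epitope, differed by -0.68 (SE 0.345) and did not pass at that level. The means of 14 neutrophil lineage markers were 5.52 to 7.45 in Hspa9+/- arrays and 4.97 to 6.84 in wild-type arrays, and those of 6 T cell and NK cell markers 6.31 to 6.78 in Hspa9+/- arrays and 5.81 to 6.24 in wild-type arrays. With all arrays 0 of the 14 neutrophil lineage markers and 5 of the 6 T cell and NK cell markers were higher at an unadjusted p under 0.05. Among all genes 6.79% were. Of the 5 T cell and NK cell markers that were higher, Cd3e, Nkg7 and Il2rb were dim, with means over all arrays of 5.21, 5.31 and 4.73. Thy1 and Lat were brighter, at 8.64 and 8.05. Cd3d, Cd3g and Klrb1c, of the same T cell and NK cell list, did not pass the filter and are not among the 6. The means of 5 plasmacytoid dendritic cell markers were 6.78 to 8.29 in Hspa9+/- arrays and 6.16 to 7.14 in wild-type arrays. Of these 5 markers, 4 were higher at an unadjusted p under 0.05.

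The slope on the macrophage mean (log2 units of the gene per log2 unit of the mean, genotype held in the model) passed limma's adjusted test in 9 of 30 members, where 17.8% of all genes passed. It was positive in 8, where 10.2% of all genes had a positive call: Slc7a11 (0.85), Cebpb (0.39), Nupr1 (0.36), Sesn2 (0.30), Atf5 (0.24), Trib3 (0.21), Sars (0.19) and Slc3a2 (0.18). It was negative in 1, Iars (-0.25), where 7.64% of all genes had a negative call. By role these were 5 of 9 regulators, 2 of 3 transporters, 2 of 10 synthetases and 0 of 8 synthesis genes. Asns, a synthesis gene, had a positive slope of 0.235 that did not pass (adjusted p = 0.186 by limma). Slc7a11, counted here among the transporters, passed the filter on dim probe sets only through Hspa9+/- 2 and wild type 1. These arrays also had the highest macrophage means, so the positive slope of Slc7a11 is not independent of the filter. The number of calls depended on Hspa9+/- 2 and wild type 1. Without both, 0 members and 1.46% of all genes passed. Without wild type 1 alone 3 members and 8.78% of all genes did. Without Hspa9+/- 2 alone 8 members did, and so did 1931 of all 14953 genes. By role those 8 were 5 regulators, 1 transporter, 1 synthetase and 1 synthesis gene, all with a positive slope. The slopes themselves without both arrays were 0.37 in Cebpb, 0.27 in Sars, 0.26 in Nupr1 and 0.24 in Sesn2. They were 0.19 in Slc7a11, 0.15 in Atf5, 0.12 in Trib3, 0.03 in Slc3a2 and -0.55 in Iars. In size they were larger than with all arrays in Sars and Iars and smaller in the others, by most in Slc7a11 and Slc3a2. With those 2 arrays left out there are 8 arrays and a narrower range of the marker mean.

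With the macrophage mean in the model the genotype difference of the synthesis genes had a median of 0.28 (7 of 8 above 0), close to the 0.27 without it. For the regulators the median was -0.05 (2 of 9 above 0), against 0.19 (6 of 9 above 0) without it. For the synthetases it was 0.14 (9 of 10 above 0), against 0.08 without it. For the 3 transporters it was 0.06 (2 of 3 above 0), against 0.37 without it, with Slc7a11 at -0.35 and Slc3a2 at 0.06. Asns differed by 0.48 in that fit (unadjusted p = 0.105, adjusted p = 0.413 by limma), and Slc7a5 by 0.51 (unadjusted p = 0.0319, adjusted p = 0.285 by limma). Whether cells of another type contribute to the values of the members was not tested.

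**Figure D5:**
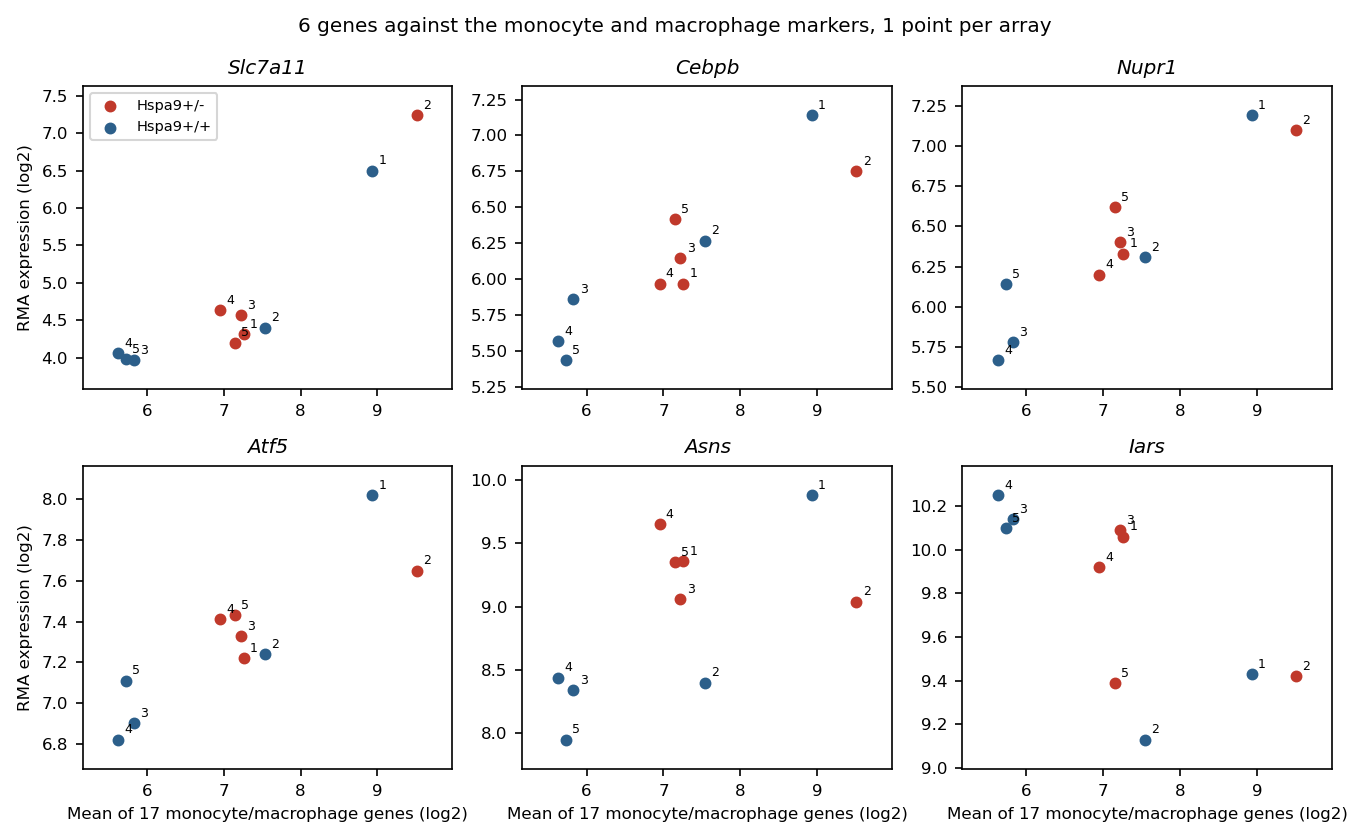
RMA expression of 6 members (log2, y axis) against the mean of 17 monocyte and macrophage markers (log2, x axis), 1 point per array, with Hspa9+/- in red and wild type in blue and the replicate number beside each point. Slc7a11 is high in Hspa9+/- 2 and wild type 1 and low in the other 8 arrays, while Asns is high in wild type 1 and at 9.04 in Hspa9+/- 2.

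Further genes of the pathway were taken from lists of 82 genes, of which 74 were measured and passed the filter. None passed limma's adjusted test, 7 were higher and 2 lower at an unadjusted p under 0.05, and the shares of all genes were 6.79% and 4.25%. Of 12 genes for eIF2alpha kinases, phosphatase subunits and eIF2B, 0 were higher and 1 was lower, and the median was -0.08. That gene was Eif2ak3, which encodes PERK, the kinase that senses stress in the endoplasmic reticulum. It measured 7.49, 7.37, 8.08, 7.82 and 7.52 in Hspa9+/- arrays 1 to 5, against 7.87, 7.92, 7.94, 7.97 and 8.13 in wild-type arrays 1 to 5 (difference -0.31, SE 0.136, unadjusted p = 0.0446, adjusted p = 0.448 by limma). 4 of the Hspa9+/- arrays lay below every wild-type array, and Hspa9+/- 3 lay within the wild-type range.

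Of 21 further genes linked to ATF4, 16 had a difference above 0, 2 were higher and 0 lower at an unadjusted p under 0.05, and the median was 0.17. Slc6a9, the glycine transporter GLYT1, measured 5.84 to 6.19 in Hspa9+/- arrays, against 5.87 in wild type 1 and 5.32 to 5.64 in the other wild-type arrays. Hspa9+/- 3 lay just below wild type 1 and the other 4 lay above every wild-type array, with a difference of 0.46 (SE 0.118, unadjusted p = 0.00266, adjusted p = 0.345 by limma). Slc7a3, a transporter of cationic amino acids such as arginine, was dim, at 4.71 to 5.27 in Hspa9+/- arrays and 4.36 to 4.93 in wild-type arrays, and differed by 0.42 (SE 0.135).

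Of 10 other cytosolic synthetase and scaffold genes, 2 were higher at an unadjusted p under 0.05: Aimp2, a scaffold protein of the multisynthetase complex, by 0.45 (SE 0.153), and Farsa, a subunit of phenylalanyl-tRNA synthetase, by 0.43 (SE 0.164). The median of these 10 was 0.09. Of 16 mitochondrial synthetases, 0 were higher and 0 lower, 8 lay above and 8 below 0, and the median was -0.03.

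Of 15 genes of the unfolded protein response of the endoplasmic reticulum, 3 were higher and 1 was lower at an unadjusted p under 0.05, and the median was 0.07. Sdf2l1, a cofactor of the chaperone BiP, differed by 0.51 (SE 0.162), Hyou1, another chaperone of that compartment, by 0.48 (SE 0.171), and Xbp1, a transcription factor of this response, by 0.41 (SE 0.129). Dnajb9 (ERdj4), a BiP cochaperone, measured 7.18, 7.90, 7.29, 7.41 and 7.07 in Hspa9+/- arrays 1 to 5, against 7.90, 7.75, 8.03, 8.07 and 8.08 in wild-type arrays 1 to 5. 4 of the Hspa9+/- arrays lay below every wild-type array and Hspa9+/- 2 lay within their range. The difference was -0.60 (SE 0.151, unadjusted p = 0.00224, adjusted p = 0.345 by limma), and with weights that limma estimates for each array it was -0.71 (adjusted p = 0.0274).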

How the data were processed

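Gene expression was measured on 10 arrays. The deposited log2 values are gene-level RMA expression (background correction, normalization between arrays and probe summary) which the authors produced in Affymetrix Expression Console, per the submitters' processing notes; version, genome build and annotation are not given in the sources used here. Of 35556 probe sets, 21789 had 1 symbol in the platform annotation. The 19938 symbols were each given the probe set of highest mean, and symbols whose mean did not exceed the 25th percentile (4.52) were dropped. Array medians ran from 5.38 to 5.49. Genotypes were compared as Hspa9+/- minus wild type with limma 3.58.1 (lmFit, eBayes) in R 4.3.3, with Benjamini-Hochberg adjustment over 14953 genes and a threshold of 0.05; the fit was tested on simulated data. Alternatives were no filter, a stricter filter, every probe set, quantile and cyclic loess normalization, trended and robust variance, array weights, a replicate block, marker means as covariates, and arrays left out. Promoter windows came from RefSeq (GRCm38.p6). The members and lists were chosen with earlier results of these data known. Values of every array are given for Atf4, Ddit3 and, in each role, the members at an unadjusted p under 0.05 or else the 2 of smallest p; Phgdh, Pck2, Chac1, Slc7a11 and Iars were added after their values were seen. Of each pathway list up to 3 genes per direction at an unadjusted p under 0.05 are named.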

Additional observations from a re-analysis of the deposited data

Results flagged for a closer look

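In each group of 5 arrays the highest or lowest value was tested for standing apart from the rest by Dixon's ratio of gap to range. Of 60 member groups 7 passed, and of 90 groups in all, which add the named pathway genes, Hspa9, the means of the 4 roles and the macrophage mean, 9 passed, of which 5 were wild type 1, 2 were Hspa9+/- 2 and 2 were wild type 2; chance flags about 1 in 20 groups. Wild type 1 stood high in Asns (9.88, against 7.95 to 8.44 in the other wild-type arrays), Chac1 (7.84, against 6.50 to 6.87), Slc3a2 (10.02, against 9.15 to 9.33) and Slc7a11 (6.50, against 3.97 to 4.40), and in the mean of the 3 amino acid transporters (8.91, against 7.76 to 7.93). Hspa9+/- 2 stood high in Slc7a11 (7.24, against 4.20 to 4.64 in the other Hspa9+/- arrays) and in the mean of the monocyte and macrophage markers (9.51, against 6.95 to 7.26). Slc7a11 passed the filter on dim probe sets only through Hspa9+/- 2 and wild type 1. Its flags on these arrays are therefore not independent of the filter, nor is that of the transporter mean, which includes it. Wild type 2 stood high in Psph (8.50, against 8.10 to 8.21) and low in Gars (9.60, against 9.77 to 9.82).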

How the results depend on the processing

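Of 838 alternative values of the 40 named genes, 777 kept their direction and their side of the adjusted threshold, 4 passed it only in the alternative and 57, in 13 genes, changed sign. Those that passed were Asns without wild type 1 and without both wild type 1 and Hspa9+/- 2, and, with array weights, Dnajb9 and Hspa9 (-0.79, adjusted p = 0.0381 by limma). With the macrophage mean and then the mean of all other-cell markers as covariate, signs turned in Atf5 (-0.029, -0.035), Sesn2 (-0.244, -0.236), Nupr1 (-0.010, -0.023), Cebpb (-0.148, -0.150), Slc7a11 (-0.345, -0.378), Eprs (0.074, 0.070), Iars (0.187, 0.179) and Tars (0.001, 0.003). Ddit4 was 0.081 with array weights and 0.080 without both arrays. Mthfd2 was 0.019 with quantile normalization, 0.015 with cyclic loess, 0.032 with array weights and 0.160 without both arrays. Psat1 was -0.004 with cyclic loess and Nars 0.012 with array weights. Leaving out 1 array gave ranges that span 0 in Sesn2 (-0.120 to 0.284), Ddit4 (-0.142 to 0.030), Psat1 (-0.040 to 0.073), Mthfd2 (-0.073 to 0.087), Slc7a11 (-0.154 to 0.887), Eprs (-0.311 to 0.048), Iars (-0.204 to 0.075), Lars (-0.054 to 0.190) and Nars (-0.111 to 0.079).

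Genes past the adjusted threshold numbered 137 with array weights, 26 without both arrays, 2 at a threshold of 0.1 and 0 to 22 with 1 array left out (22 without wild type 1); members past it numbered 1 without both arrays and 0 to 1 with 1 array left out. Members higher at an unadjusted p under 0.05 numbered 2 with no filter, 4 with quantile normalization, 3 with cyclic loess, 10 with array weights (13.1% of all genes), 16 without both arrays, and 0 (without Hspa9+/- 4) to 13 (without wild type 1) with 1 array left out. Members lower numbered 0 with quantile normalization and 0 to 1 with 1 array left out. Pathway genes higher numbered 14 with array weights, 13 with either marker covariate, 12 without both arrays and 6 to 11 with 1 array left out. Pathway genes lower numbered 1 with the stricter filter, quantile normalization, trended and robust variance, the replicate block or both arrays left out, and 1 to 3 with 1 array left out. Members with a called slope on macrophage markers numbered 0 positive and 0 negative without both arrays, 3 to 8 positive and 0 to 3 negative with 1 array left out. The cause was not tested. The median over all genes was 0.014 with quantile normalization and 0.010 with cyclic loess, and that over the members 0.184 and 0.191; the share of all genes above 0 was then 53.0% and 52.3%. The median over members was 0.142 to 0.289 with 1 array left out.

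Both genotypes are numbered 1 to 5 in the labels. Same-numbered arrays deviated from their group means with correlations of -0.53, 0.21, 0.53, 0.04 and 0.31. No Hspa9+/- array was closest to the wild-type array of its own number, so the numbers are not taken as pairs. With the replicate block 0 genes passed, 1 member was higher and 1 lower, and the median over the members was 0.21.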
